A study of Rattus norvegicus with 36 samples.

Results

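The 10 genes described here, *Ndrg1*, *Ankrd37*, *Car9*, *Kdm3a*, *Ddit4*, *Bhlhe40*, *Mxi1*, *Ak4*, *Stc2* and *Higd1a*, are known targets of the hypoxia-inducible factors that lie outside glycolysis and angiogenesis. They were picked by gene symbol, with earlier results of these data known. Each matched 1 of the 24275 genes listed in the count tables. Their RNA was measured in H9C2, a rat cardiac myoblast cell line, transfected for 24 h with 25 nmol/L of a mimic and then exposed to 24 h of normoxia or hypoxia. The mimics were the mimic control (MC), miR-125b, and its 3′ isomiRs Trim AGU, Trim AG, Trim A and Plus A, which lose or gain the named bases at the 3′ end. Counts of 3 libraries were used for each of 11 groups, that is hypoxia with each of the 6 mimics and normoxia with each mimic other than MC, while the per-library counts of Normoxia MC are not used here. According to the study's methods the hypoxic cells were in serum-free, low-glucose medium, whereas the normoxic cells had fresh standard medium, so oxygen, serum and glucose cannot be told apart in any comparison of hypoxia with normoxia. All groups carry a transfected mimic, and nothing in the labels says whether the 3 libraries came from separate cultures, so the p-values measure the spread between these libraries, which may be technical.

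Hypoxia-inducible factors are pairs of an oxygen-labile α subunit and a stable β subunit. With oxygen, prolyl hydroxylases mark the α subunit for the VHL ubiquitin ligase and it is degraded, and without oxygen it accumulates and binds short DNA elements with the core ACGTG or GCGTG near its target genes. Beyond sugar metabolism and vessel growth, targets adjust pH, mitochondria, chromatin and growth signalling, and the heart is known to use the same pathway under ischaemia.

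The sequences of the 5 miR-125b mimics are shown because every comparison of isomiRs rests on their last bases. The seed, bases 2 to 8, is in capitals and is the same in all 5. The miR-125b line is the RefSeq mature sequence (GRCr8, chr11:29732588-29732609, plus strand), and the isomiR lines are that sequence with the labelled bases added or removed.
miR-125b: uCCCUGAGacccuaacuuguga
Plus A: uCCCUGAGacccuaacuugugaa
Trim A: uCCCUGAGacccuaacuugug
Trim AG: uCCCUGAGacccuaacuugu
Trim AGU: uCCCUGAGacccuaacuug
The 5 RNAs are 22, 23, 21, 20 and 19 bases long in this order, and differ nowhere else.

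The cores ACGTG and GCGTG were searched on both strands in RefSeq promoter windows of 300 bases (GRCr8, 250 bases before and 50 after the start site). Windows were matched for 9 of the 10 genes, all but *Ndrg1*, and 8 of these 9, all but *Stc2*, held a core, against 41.6% of all 33469 promoter windows. A gene counted if any of its windows held a core, while the share is per window. *Kdm3a* matched 2 windows, with its core in window 2. The palindrome CACGTG, which holds ACGTG on each strand and is also the E-box that the proteins of *Bhlhe40* and *Mxi1* are known to bind, was in the windows of *Ankrd37* and *Bhlhe40* and in 6.42% of all windows. A stretch of 29 bases of 8 genes is shown with the core in capitals, so that the elements can be set beside the values. Each is written along the strand of its gene, and a core written CACGT lies on the opposite strand.
Ankrd37, chr16:53001472-53001500, plus strand: ggttccgggctaCACGTGtcactgtttgg
Bhlhe40, chr4:143174218-143174246, plus strand: agcgttgtccaaCACGTGagactcatgtg
Car9, chr5:62559013-62559041, plus strand: ttatttccgatgCACGTacagcccgtcca
Ddit4, chr20:28437159-28437187, minus strand: agaacgttgcgaACGTGcgcccggtgcct
Mxi1, chr1:262348392-262348420, plus strand: cgACGTGtactggcttgggggcgggacta
Kdm3a, chr4:105233306-105233334, minus strand: ccgggaggctgtGCGTGtcttgtgtgaga
Ak4, chr5:121155052-121155080, plus strand: aggcgagtcccgGCGTGcggaaggtgctg
Higd1a, chr8:130401064-130401092, minus strand: ccacccaggcctCACGTctgacacgaaca
*Ankrd37* had 4 such elements, *Bhlhe40* and *Higd1a* had 3 each, *Ddit4* had 2, and *Car9*, *Mxi1*, *Kdm3a* and *Ak4* had 1 each. A match describes the letters in this window and is not a measured binding site.

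Library totals were 28361216 to 42672584 counts with a median of 29923694, and the Hypoxia Trim AG libraries were the deepest, at 39940087 or more against 34505938 or less in every other group. Replicate 2 of Hypoxia Trim AGU stood apart, with a TMM scaling factor of 0.886 against 0.955 to 1.06 in the other 32 libraries. Replicate 1 of Normoxia Plus A and replicate 1 of Normoxia miR-125b each went against their labels in *Cav1*, which encodes caveolin 1. *Cav1* was at 269, 98.0 and 98.3 CPM (counts scaled to the library total) in Normoxia Plus A and at 102, 282 and 263 CPM in Normoxia miR-125b, whereas it was 93.9 to 100.2 CPM in Hypoxia Plus A and 241 to 246 CPM in Hypoxia miR-125b. The comparisons that use these 3 libraries were therefore repeated without them. Over the 162 values of members other than *Ak4* in these repeats, 1 call changed, *Bhlhe40* under Trim AGU, and no log2 fold change moved by more than 0.292. Of the listed myoblast and striated muscle markers, *Cdh15*, *Myod1*, *Myog* and *Acta1* were above 10 CPM in all 33 libraries. So was *Vim*, which is not particular to myoblasts. *Tnnt2* was at 9.22 to 316 CPM, and *Myf5* was at 0 in 30 libraries. *Des* was at 0.855 to 4.98 CPM, and *Actc1* was below 1 CPM in 25 libraries and at most 35.0 CPM. The cardiomyocyte markers *Nkx2-5*, *Tbx5*, *Myh6*, *Nppa* and *Ryr2* were below 1 CPM in all 33, while *Tnni3* was at 0.855 to 3.43 CPM and *Gata4* at 8.72 to 16.4 CPM. The immune markers *Ptprc* and *Lyz2* were below 1 CPM in all 33, and *Cd68* was at 0.493 to 2.43 CPM.

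Compared per transcript length, on the FPKM values of the authors, the 10 genes covered a wide range of levels in Hypoxia MC. *Ddit4* was the highest at 75.6 ± 2.10 FPKM (SD, n = 3), followed by *Higd1a* at 39.4 ± 3.33, *Bhlhe40* at 29.2 ± 1.32 and *Kdm3a* at 27.9 ± 0.691 FPKM. *Mxi1*, *Stc2* and *Car9* were close to each other at 18.7 ± 1.06, 17.4 ± 0.277 and 16.8 ± 1.15 FPKM. *Ankrd37* at 7.57 ± 0.445, *Ndrg1* at 3.06 ± 0.210 and *Ak4* at 1.10 ± 0.515 FPKM were the lowest. The levels of *Bhlhe40* and *Kdm3a* differed by less than their SDs added together, as did those of *Mxi1*, *Stc2* and *Car9* taken as neighbours.

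Over the 11 groups, Hypoxia MC held the highest level of 7 of the 10 genes. For *Ndrg1*, *Ankrd37*, *Car9*, *Kdm3a*, *Ddit4* and *Mxi1* its 3 libraries lay above every library of the next group, and for *Ak4* they overlapped Hypoxia miR-125b. The other 3 genes had a different order. *Bhlhe40* was highest in Normoxia Trim AGU at 120.4 ± 7.67 CPM (SD, n = 3), with ranges that overlapped down the order as far as Hypoxia Plus A. *Stc2* was highest in Hypoxia Plus A at 60.8 ± 4.74 CPM and lowest in Normoxia Trim AGU at 23.9 ± 2.05 CPM. *Higd1a* was highest in Hypoxia miR-125b at 67.1 ± 2.19 CPM, overlapping Hypoxia MC at 64.0 ± 5.22 CPM.

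**Figure D1:**
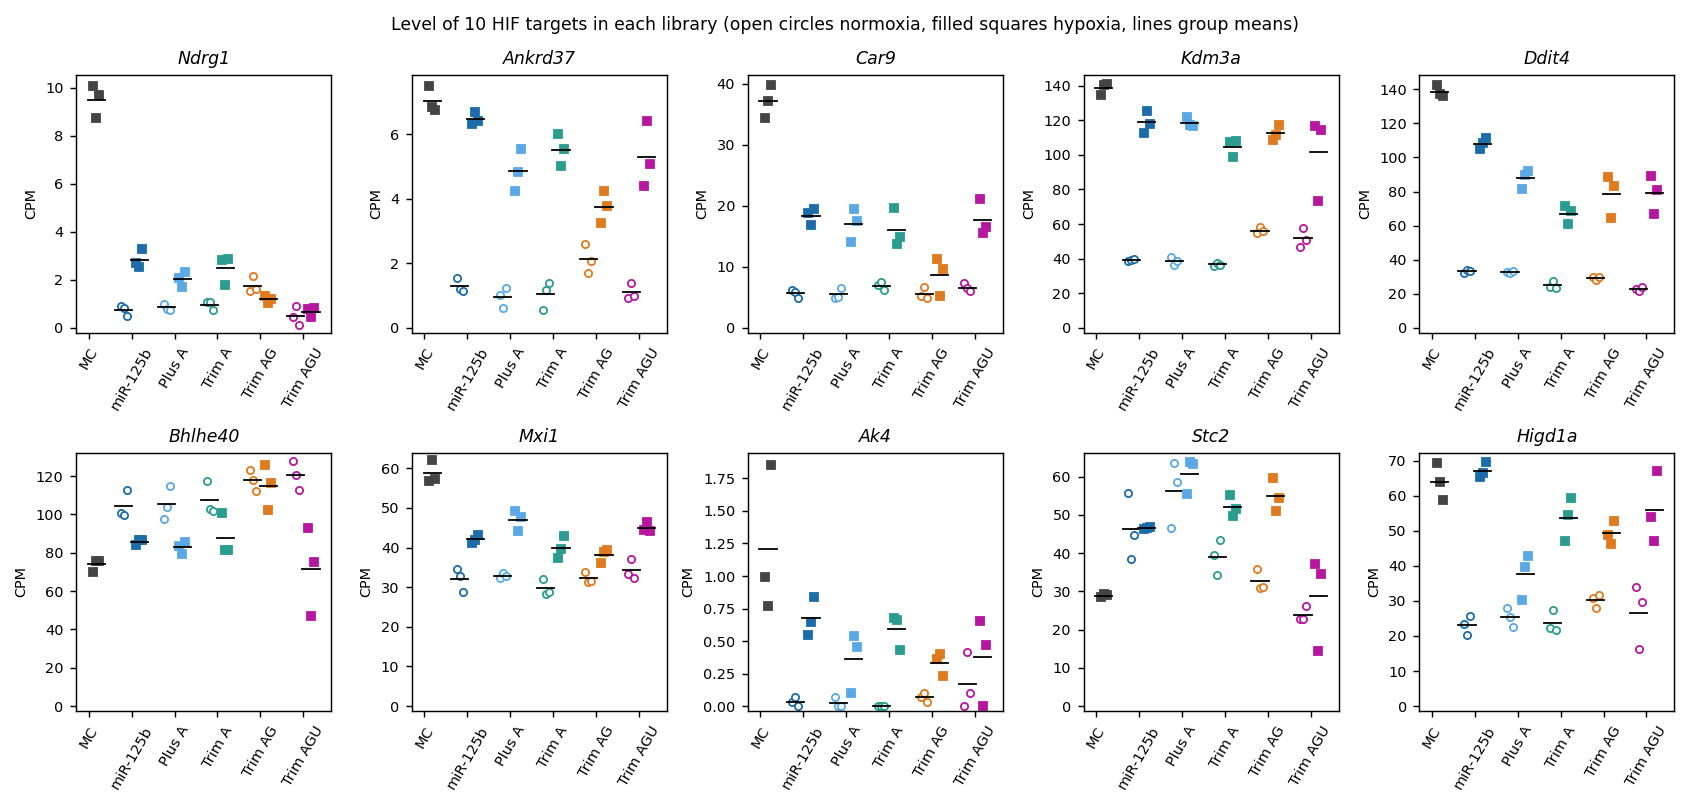
CPM on library totals (vertical axis, from 0) of each gene in each of the 33 libraries, by mimic (horizontal axis), with open circles for normoxia, filled squares for hypoxia and lines at group means of 3 libraries. Hypoxia MC stands above all other groups for *Ndrg1*, *Ankrd37*, *Car9*, *Kdm3a*, *Ddit4* and *Mxi1*, and *Bhlhe40* is the gene with higher means in normoxia than in hypoxia under each mimic that has both.

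The first question was how the 10 genes changed from normoxia to hypoxia under each miR-125b mimic. A gene was called at an adjusted p-value below 0.05, from edgeR's quasi-likelihood test with Benjamini-Hochberg adjustment over all genes tested, and a fold change of at least 1.5. Log2 fold changes are given with a standard error derived from that test, as edgeR reports none. It is the size of the log2 fold change divided by the square root of the F statistic. *Ak4* was near the detection limit in normoxia and is described apart. Of the other 9 genes, 6 were higher in hypoxia under miR-125b and none was lower, beside 9.34% of all genes called higher and 11.5% called lower. Under Trim A it was also 6 higher and none lower (all genes, 12.0% and 14.5%). Under Plus A it was 5 and none (10.00% and 12.8%), under Trim AG 5 and none (15.0% and 17.8%), and under Trim AGU 5 higher and 1 lower (13.6% and 13.4%). The median log2 fold change of the 9 genes was 1.52 under miR-125b, 1.14 under Plus A, 1.14 under Trim A, 0.71 under Trim AG and 1.00 under Trim AGU, while that of all genes tested was 0.02 or less in each. *Ankrd37*, *Kdm3a* and *Ddit4* were called higher under all 5 mimics, and *Mxi1* under none. Of 10 proliferation genes all were called lower in hypoxia under each mimic, and of 15 genes of the integrated stress response 13 were called higher under Trim AG, 12 under Trim AGU, 8 under Trim A, 5 under Plus A, with 1 lower, and 4 under miR-125b. Their part in the changes of the 9 genes was not tested.

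*Car9* encodes carbonic anhydrase 9, a membrane enzyme that hydrates carbon dioxide outside the cell and so regulates pH (chromosome 5, 59008933 to 59015528, plus strand, in the authors' tables, whose build is not given in the sources used here). Under miR-125b it was 6.13, 5.95 and 4.93 CPM in normoxia and 18.8, 16.8 and 19.5 CPM in hypoxia, with no overlap. The log2 fold change was 1.61 ± 0.12 (adjusted p = 5.77e-06) under miR-125b, 1.51 ± 0.16 under Plus A, 1.14 ± 0.16 under Trim A and 1.46 ± 0.19 under Trim AGU, all called. Under Trim AG it was 5.21, 6.62 and 4.88 CPM in normoxia and 11.2, 5.23 and 9.58 CPM in hypoxia, so that replicate 2 in hypoxia fell within the normoxic range. The log2 fold change under Trim AG was 0.64 ± 0.26 and was not called (adjusted p = 0.0604). Without that library it was 0.90 with an adjusted p of 0.00143, and DESeq2 called it with all 3 libraries (adjusted p = 0.0179).

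*Higd1a* and *Ak4* encode mitochondrial proteins, the former a small inner membrane protein linked to the respiratory chain (chromosome 8, 130482493 to 130491998, minus strand) and the latter an adenylate kinase of the matrix (chromosome 5, 120250616 to 120305897, plus strand). *Higd1a* went from 23.5, 20.3 and 25.8 CPM in normoxia to 65.3, 66.6 and 69.5 CPM in hypoxia under miR-125b, a log2 fold change of 1.45 ± 0.084 (adjusted p = 1.32e-06). Under Plus A it was 28.0, 25.5 and 22.4 CPM in normoxia and 30.3, 39.6 and 42.9 CPM in hypoxia. The Plus A groups were thus closer together, without overlap, and the log2 fold change of 0.46 ± 0.13 stayed under the fold threshold (adjusted p = 0.0128). *Higd1a* under Plus A was called at 0.595 (adjusted p = 0.00143) without replicate 1 of Hypoxia Plus A. It was called under Trim A at 1.10 ± 0.12, Trim AG at 0.71 ± 0.084 and Trim AGU at 1.11 ± 0.27. The Trim AGU call had an adjusted p of 0.0203, which became 0.0624 without replicate 3 of Normoxia Trim AGU and 0.0715 without replicate 3 of Hypoxia Trim AGU. *Ak4* was near the detection limit in normoxia, with 3 counts over the Normoxia miR-125b libraries, 2 over Normoxia Plus A, 0 over Normoxia Trim A, 6 over Normoxia Trim AG and 15 over Normoxia Trim AGU. In hypoxia it had 62, 33, 57, 41 and 37 counts in the same order of mimics. The ratio of hypoxia to normoxia per total count was 19.7 (95% Clopper-Pearson interval, counting error only, 6.43 to 98.0) under miR-125b and 16.0 (4.10 to 138) under Plus A. Under Trim A, with 0 counts in normoxia, *Ak4* in hypoxia was 17.0 times a floor of 3 counts over the normoxic group. That value has no interval and is not a lower bound. Under Trim AG and Trim AGU the ratios were 4.85 (2.05 to 14.0) and 2.22 (1.19 to 4.36). The Trim AGU ratio rests on uneven libraries, with 0, 12 and 3 counts in normoxia and 21, 0 and 16 in hypoxia, and edgeR's log2 fold change there ran from 0.50 to 2.80 on leaving out 1 library at a time. edgeR called *Ak4* under miR-125b (adjusted p = 0.000651) and Trim A (adjusted p = 0.00123) and not under Trim AGU (adjusted p = 0.510), and the low-count filter left it out under Plus A and Trim AG. Under miR-125b and Trim A it passed that filter through its hypoxic libraries, so these calls are no support for a rise.

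*Ddit4*, also called REDD1, encodes an inhibitor of the growth kinase complex mTORC1 (chromosome 20, 29509289 to 29511382, minus strand). It was at 21.8 to 34.2 CPM in the 15 normoxic libraries and at 60.7 to 143 CPM in the 18 hypoxic ones, which did not overlap. The log2 fold change was 1.62 ± 0.052 under miR-125b (adjusted p = 8.55e-08), 1.31 ± 0.065 under Plus A, 1.34 ± 0.092 under Trim A, 1.43 ± 0.11 under Trim AG and 1.82 ± 0.13 under Trim AGU. *Kdm3a* encodes a demethylase of lysine 9 of histone H3 that uses oxygen itself (chromosome 4, 99503176 to 99546905, minus strand), and it too separated the 35.8 to 58.0 CPM of normoxia from the 73.4 to 141 CPM of hypoxia. Its log2 fold change was 1.52 ± 0.054 under miR-125b and 1.44 ± 0.072 under Trim A, with Plus A between them, and 1.00 ± 0.17 under Trim AGU and 1.01 ± 0.074 under Trim AG. The lowest hypoxic value, 73.4 CPM, was replicate 2 of Hypoxia Trim AGU, and without it the Trim AGU value was 1.13. *Ankrd37* encodes a small ankyrin repeat protein (chromosome 16, 49462889 to 49465888, plus strand) and rose from 1.54, 1.22 and 1.15 CPM to 6.32, 6.68 and 6.43 CPM under miR-125b. Its log2 fold changes were 2.23 ± 0.17 under miR-125b, 2.24 ± 0.25 under Plus A, 2.33 ± 0.29 under Trim A and 2.32 ± 0.30 under Trim AGU. Under Trim AG the step was from 2.61, 1.71 and 2.06 CPM to 3.24, 4.23 and 3.77 CPM, again without overlap, and the log2 fold change was 0.83 ± 0.21 (adjusted p = 0.00888).

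*Ndrg1*, N-myc downstream regulated 1, is a stress-responsive gene and a common marker of hypoxia (chromosome 7, 107734299 to 107775706, minus strand). Under miR-125b it was 0.925, 0.835 and 0.487 CPM in normoxia and 2.72, 2.52 and 3.29 CPM in hypoxia. Under Trim AG it was 1.53, 2.16 and 1.60 CPM in normoxia and 1.33, 1.05 and 1.20 CPM in hypoxia. Under Trim AGU it was 0.450, 0.896 and 0.132 CPM in normoxia and 0.782, 0.439 and 0.822 CPM in hypoxia. The hypoxic libraries were thus all higher under miR-125b, all lower under Trim AG, and overlapped the normoxic ones under Trim AGU. The log2 fold change was 1.83 ± 0.26 under miR-125b (adjusted p = 0.000337), 1.14 ± 0.24 under Plus A and 1.29 ± 0.28 under Trim A, all called. It was -0.56 ± 0.23 under Trim AG (adjusted p = 0.0623) and 0.49 ± 0.62 under Trim AGU (adjusted p = 0.569), neither of them called. The Trim AGU value was 1.24 without replicate 2 and 0.034 without replicate 3 of Normoxia Trim AGU. Without replicate 1 of the normoxic group the values were 2.02 under miR-125b and 1.25 under Plus A, both still called.

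The remaining genes moved little or against the others. *Bhlhe40* encodes a basic helix-loop-helix repressor of the clock and of differentiation (chromosome 4, 140703619 to 140709319, plus strand), and its log2 fold change was -0.36 ± 0.056 under miR-125b, -0.46 ± 0.074 under Plus A, -0.37 ± 0.10 under Trim A and -0.03 ± 0.09 under Trim AG, none called at the fold threshold. Under Trim AGU it was 128, 120.4 and 113 CPM in normoxia and 92.9, 46.8 and 75.0 CPM in hypoxia and was called lower at -0.73 ± 0.20 (adjusted p = 0.0319). Without replicate 2 of Hypoxia Trim AGU it was -0.55 (adjusted p = 0.00714), which is under the fold threshold, and on library totals in place of TMM it was -0.75 (adjusted p = 0.0524). The call was also lost with the replicate block (adjusted p = 0.0519), without replicate 1, 2 or 3 of Normoxia Trim AGU (0.103, 0.0942 and 0.0809) and without replicate 3 of Hypoxia Trim AGU (0.0823). *Mxi1*, an antagonist of MYC that competes for MAX (chromosome 1, 274030978 to 274090071, plus strand), had log2 fold changes of 0.25 to 0.44 and edgeR adjusted p-values of 0.000787 to 0.0487, all below 1.5-fold. *Stc2*, the secreted glycoprotein stanniocalcin 2 (chromosome 10, 16542882 to 16553295, plus strand), was called higher in hypoxia under Trim AG, from 35.9, 30.9 and 31.2 CPM to 59.6, 51.1 and 54.3 CPM, a log2 fold change of 0.76 ± 0.091 (adjusted p = 0.000139). Under the other mimics its log2 fold change was -0.08 ± 0.12, 0.00 ± 0.11, 0.34 ± 0.094 and 0.28 ± 0.29 for miR-125b, Plus A, Trim A and Trim AGU. The Trim AGU value was 0.56 (adjusted p = 0.00583) without replicate 2 of Hypoxia Trim AGU, in which *Stc2* was at 14.4 CPM.

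**Figure D2:**
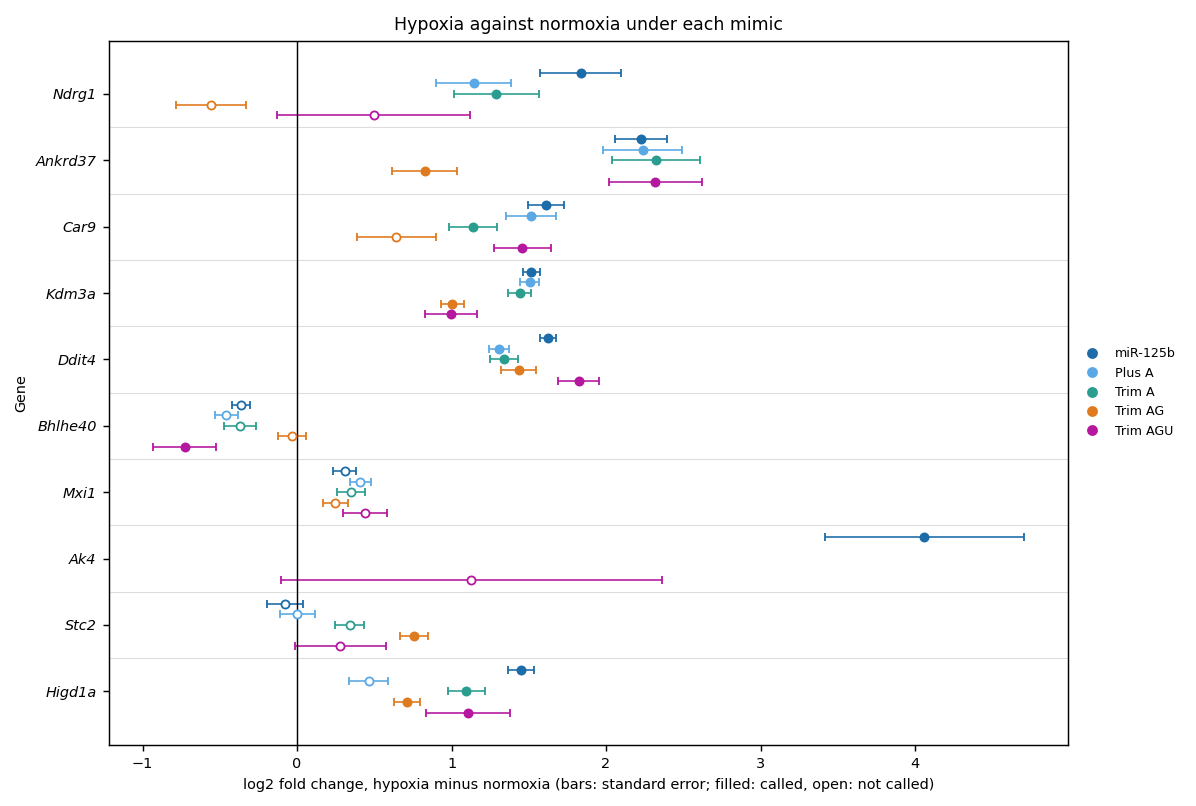
Log2 fold change of hypoxia against normoxia (horizontal axis, bars for the standard error) for each gene (vertical axis) under each miR-125b mimic, 3 libraries per group, with filled points for called genes. *Ak4* is left out under Trim A, where all normoxic libraries were at 0, and was not tested under Plus A and Trim AG. The Trim AG points of *Ndrg1* and *Ankrd37* lie at -0.56 and 0.83, left of the miR-125b points at 1.83 and 2.23.

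The second question was how each mimic differed from MC in hypoxia, where the 5 comparisons share the Hypoxia MC libraries. Of the 9 genes other than *Ak4*, 2 were lower and 1 higher with miR-125b (all genes, 12.5% lower and 9.43% higher), 4 lower and 1 higher with Plus A (14.4% and 10.5%), 3 lower and 1 higher with Trim A (15.7% and 12.4%), 4 lower and 2 higher with Trim AG (20.2% and 17.0%) and 3 lower and none higher with Trim AGU (12.4% and 11.4%). The medians of the 9 log2 fold changes were -0.19, -0.51, -0.36, -0.56 and -0.25 in this order. *Ndrg1* and *Car9* were called lower with all 5 mimics. Other lists moved against MC as well. Of 8 myoblast and striated muscle markers tested, 4, 5, 6, 4 and 6 were called lower in the same order of mimics and none higher, with medians of -1.49, -1.60, -1.56, -0.75 and -1.39. Of the 15 stress response genes, 7, 8, 10, 11 and 11 were called higher and 1 lower with each mimic. Of the 10 proliferation genes, 1, 0, 7, 9 and 9 were called higher, again in this order of mimics, and 1 was called lower, under Plus A. Their part in the values of the 9 genes was not tested.

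*Ndrg1* was 10.0, 8.73 and 9.71 CPM in Hypoxia MC, whereas no library of another hypoxic group was above 3.29 CPM. Its log2 fold change against MC was -1.70 ± 0.14 with miR-125b (adjusted p = 1.68e-06), -3.66 ± 0.25 with Trim AGU, -2.93 ± 0.16 with Trim AG, -2.19 ± 0.15 with Plus A and -1.88 ± 0.20 with Trim A. *Car9* was 34.4, 37.1 and 39.7 CPM in Hypoxia MC and at most 21.1 CPM in any other hypoxic library. Its log2 fold change was between -1.16 and -0.93 with miR-125b, Plus A, Trim A and Trim AGU, and -2.03 ± 0.22 with Trim AG (adjusted p = 8.47e-05). For both genes the groups did not overlap Hypoxia MC.

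*Ddit4* was 143, 138 and 136 CPM in Hypoxia MC and 105, 108 and 111 CPM in Hypoxia miR-125b, which did not overlap, and the log2 fold change of -0.32 ± 0.036 was under the fold threshold (adjusted p = 1.67e-05). It was called lower with Plus A at -0.64 ± 0.053, Trim A at -1.01 ± 0.075, Trim AG at -0.75 ± 0.11 and Trim AGU at -0.68 ± 0.10. *Ankrd37* was called lower with Trim AG, at -0.84 ± 0.15 (adjusted p = 0.00153), and was at -0.08 ± 0.11 with miR-125b (adjusted p = 0.550). *Higd1a* was called lower with Plus A, at -0.74 ± 0.11 (adjusted p = 0.000259), and was between -0.31 and 0.11 with the other mimics. *Ak4* was 0.992, 0.772 and 1.85 CPM in Hypoxia MC and was called lower with Plus A at -1.69 ± 0.51 and Trim AG at -1.78 ± 0.41. Its counts were 30, 23 and 54 in Hypoxia MC, 3, 16 and 14 in Hypoxia Plus A and 15, 16 and 10 in Hypoxia Trim AG, and it passed the low-count filter through Hypoxia MC, so these calls are no support for a fall. The Plus A call had an adjusted p of 0.0174, which became 0.0942 without replicate 3 of Hypoxia MC, the highest library. *Kdm3a* lay between -0.36 and -0.19 and *Mxi1* between -0.56 and -0.24 over the 5 mimics, without a call. *Mxi1* with Trim AG was close to the threshold and was called on library totals in place of TMM, at -0.62, and at -0.59 without replicate 1 or 3 of Hypoxia MC or replicate 2 of Hypoxia Trim AG.

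*Stc2* went the other way. It was 28.5, 29.2 and 29.0 CPM in Hypoxia MC, 46.3, 46.7 and 46.9 CPM in Hypoxia miR-125b and 55.3, 63.8 and 63.3 CPM in Hypoxia Plus A. The log2 fold change was 0.73 ± 0.045 with miR-125b (adjusted p = 1.67e-07), 1.10 ± 0.063 with Plus A, 0.99 ± 0.075 with Trim AG and 0.90 ± 0.065 with Trim A, all called higher. With Trim AGU it was 0.11 ± 0.29, and without replicate 2 of Hypoxia Trim AGU it was 0.40 (adjusted p = 0.00295), under the fold threshold. *Bhlhe40* was called higher with Trim AG at 0.70 ± 0.087 (adjusted p = 0.000170), from 70.1, 75.8 and 75.9 CPM to 126, 102 and 116 CPM. With the other 4 mimics it was between 0.08 and 0.29.

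**Figure D3:**
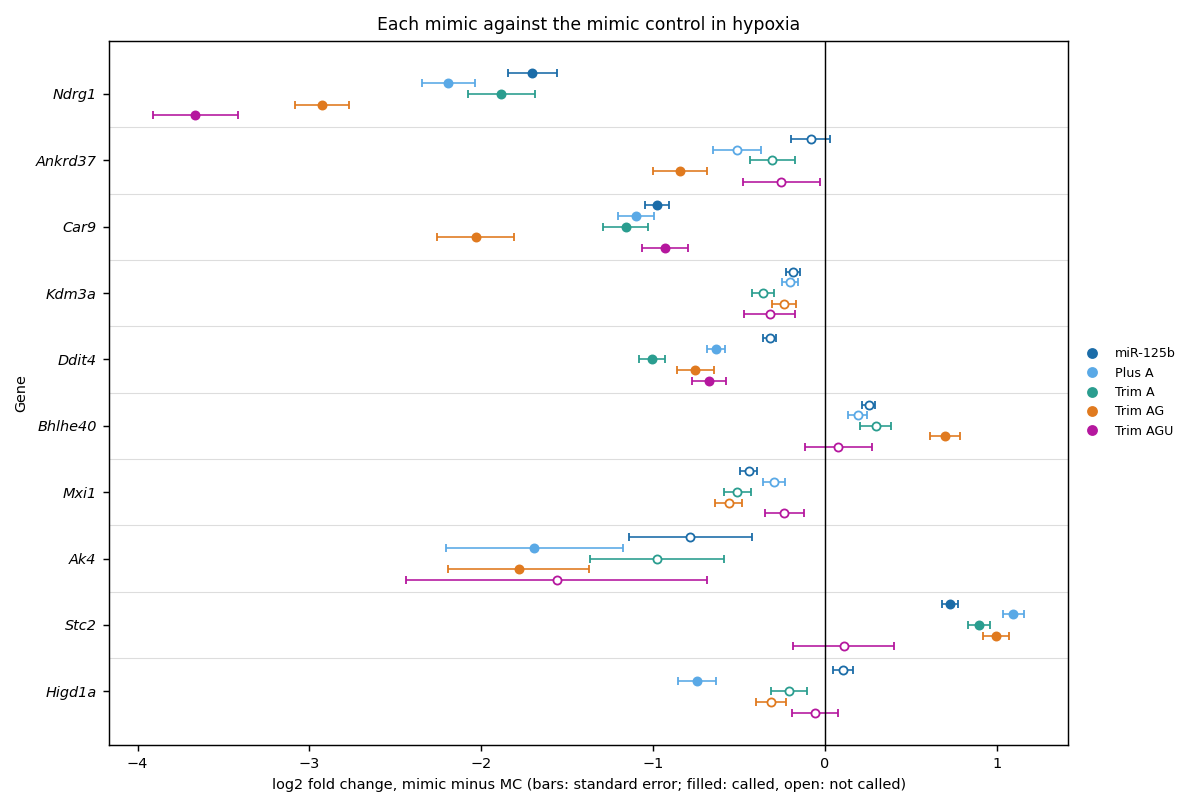
Log2 fold change of each mimic against MC in hypoxia (horizontal axis, bars for the standard error) for each gene (vertical axis), 3 libraries per group, with filled points for called genes. *Ndrg1* lies between -3.66 and -1.70 and *Car9* between -2.03 and -0.93, while *Stc2* is right of 0.

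The third question was whether the isomiRs differed from miR-125b itself. In hypoxia, of the 9 genes other than *Ak4*, Plus A differed in 1, *Higd1a* (all genes, 0.707% higher and 1.32% lower), and Trim A in 1, *Ddit4* (0.457% higher and 0.417% lower). Trim AG differed in 3, *Ndrg1*, *Ankrd37* and *Car9* (7.85% higher and 11.5% lower), and Trim AGU in 1, *Ndrg1* (1.83% higher and 1.93% lower). All of these were lower with the isomiR. *Ak4* was tested too and was called with none of the isomiRs. *Higd1a* with Plus A was at -0.85 ± 0.11 (adjusted p = 0.00168), and the 3 libraries of Hypoxia Plus A lay below the 3 of Hypoxia miR-125b. *Ddit4* with Trim A was at -0.69 ± 0.072 (adjusted p = 0.00878), from 105, 108 and 111 CPM to 71.5, 60.7 and 68.5 CPM. That call was lost on leaving out any of the 3 Hypoxia miR-125b libraries or replicate 3 of Hypoxia Trim A, with adjusted p-values of 0.0562 to 0.0797.

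With Trim AG in hypoxia, *Ndrg1* was at -1.23 ± 0.20 (adjusted p = 0.00173), *Ankrd37* at -0.77 ± 0.15 (adjusted p = 0.00424) and *Car9* at -1.07 ± 0.23 (adjusted p = 0.00717) against miR-125b, and in each the groups did not overlap. *Kdm3a*, in contrast, was at -0.06 ± 0.071 (adjusted p = 0.529). *Bhlhe40* at 0.44 ± 0.08, *Ddit4* at -0.44 ± 0.11 and *Higd1a* at -0.43 ± 0.073 had adjusted p-values below 0.05 but changes under 1.5-fold. So did *Stc2* at 0.26 ± 0.072 (adjusted p = 0.0212). With Trim AGU, *Ndrg1* was at -1.97 ± 0.29 (adjusted p = 0.0186). It was -1.79 (adjusted p = 0.00300) without replicate 2 of Hypoxia Trim AGU, and not called on leaving out replicate 3 of that group (0.0714) or any of the Hypoxia miR-125b libraries (0.105 to 0.133). *Car9* with Trim AGU was at 0.03 ± 0.14, with the ranges of both groups overlapping.

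In normoxia, Plus A and Trim A were called different from miR-125b in none of the 9 genes tested. For Plus A edgeR called 0% of all genes, with 404 of 14781 genes at an unadjusted p below 0.05 and none of the members among them, and DESeq2 called 1 gene, no member. Leaving out replicate 1 of both groups, the libraries that went against their labels, raised the share of all genes called to 1.12% and left the members uncalled, with *Stc2* at 0.58 (adjusted p = 0.00599) just under the fold threshold. For Trim A edgeR called 0.367% higher and 0.0475% lower of all genes, *Ddit4* was the 1 member at an unadjusted p below 0.05, at -0.40 ± 0.077, and DESeq2 called no member. Trim AG was called higher in 2 of 9, and in none lower, beside 7.58% and 6.36% of all genes. These were *Ndrg1* at 1.19 ± 0.29 (adjusted p = 0.00994) and *Ankrd37* at 0.66 ± 0.23 (adjusted p = 0.0472), both of which were called lower with Trim AG in hypoxia. The *Ankrd37* call was lost with DESeq2 and on leaving out any of 4 libraries, replicates 2 and 3 of Normoxia miR-125b and replicates 1 and 3 of Normoxia Trim AG, with adjusted p-values of 0.0978 to 0.177. *Kdm3a* was at 0.48 ± 0.052 with Trim AG and 0.40 ± 0.089 with Trim AGU, in each below 1.5-fold. *Stc2* with Trim AG was at -0.55 ± 0.13 (adjusted p = 0.00763), just under the fold threshold. It was called lower at -0.67 without replicate 2 of Normoxia miR-125b and at -0.62 without replicate 1 of Normoxia Trim AG. Trim AGU was called lower in 1 of 9, beside 5.16% of all genes (higher, 6.22%), namely *Stc2* at -0.96 ± 0.14 (adjusted p = 0.00121), with 22.7, 22.8 and 26.3 CPM against 55.8, 38.5 and 44.8 CPM. Without replicate 1 of Normoxia miR-125b *Ndrg1* and *Ankrd37* with Trim AG were at 1.37 and 0.80 and *Stc2* with Trim AGU at -0.81, all still called.

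**Figure D4:**
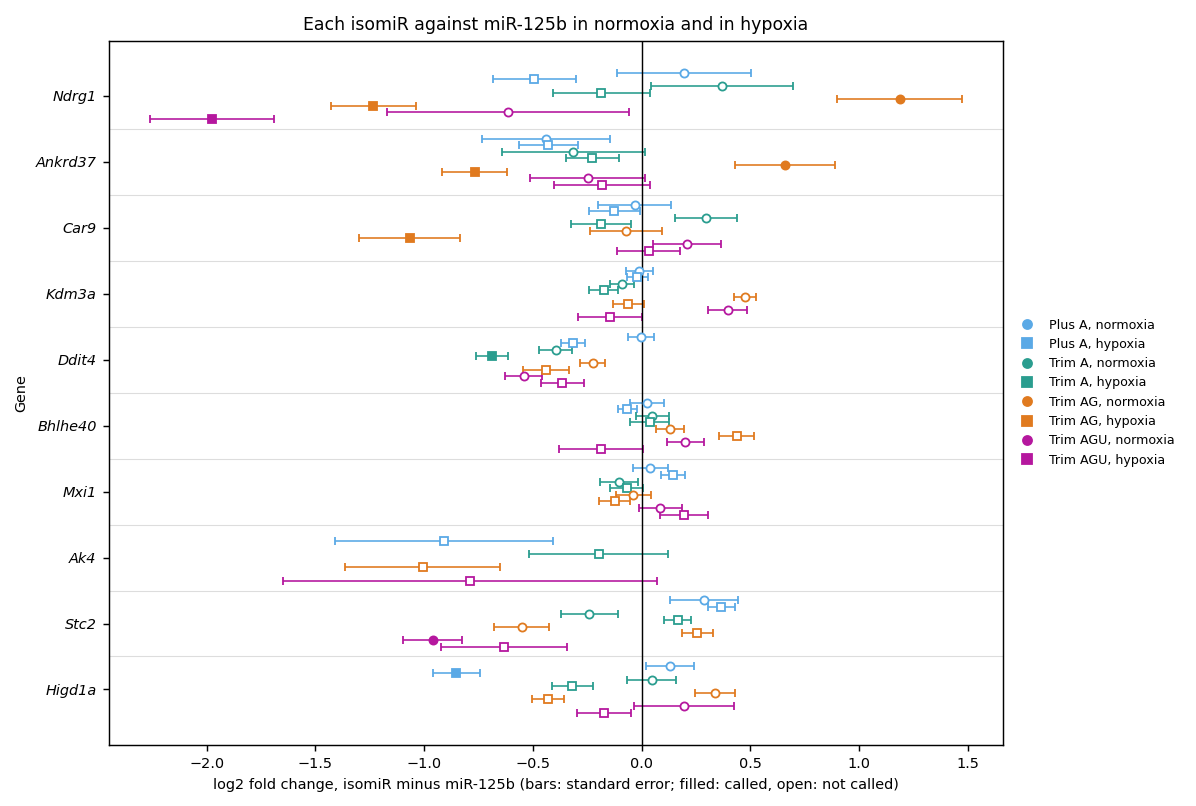
Log2 fold change of each isomiR against miR-125b (horizontal axis, bars for the standard error) for each gene (vertical axis), circles for normoxia and squares for hypoxia, 3 libraries per group, filled where called. For Trim AG, *Ndrg1* lies at 1.19 in normoxia and -1.23 in hypoxia and *Ankrd37* at 0.66 and -0.77, on opposite sides of 0.

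Whether the response to hypoxia itself differed was tested by the interaction of oxygen and mimic, that is the log2 fold change of hypoxia against normoxia under an isomiR minus that under miR-125b. For Trim AG this difference was called negative in 4 and positive in 1 of the 9 genes other than *Ak4*, beside 6.97% and 4.29% of all genes. *Ak4* was tested too and was not called. *Ndrg1* was at -2.43 ± 0.35 (adjusted p = 0.000561), *Ankrd37* at -1.44 ± 0.27 (adjusted p = 0.00274), *Car9* at -1.01 ± 0.31 (adjusted p = 0.0309) and *Higd1a* at -0.78 ± 0.12 (adjusted p = 0.000933). *Stc2* was at 0.80 ± 0.16 (adjusted p = 0.00381). Without replicate 1 of Normoxia miR-125b the same 5 genes were called, with *Ndrg1* at -2.61, *Ankrd37* at -1.58, *Car9* at -1.07, *Higd1a* at -0.79 and *Stc2* at 0.64. The *Car9* value was not called on leaving out any of 5 libraries, replicates 2 and 3 of Normoxia miR-125b, replicates 1 and 3 of Hypoxia miR-125b and replicate 2 of Normoxia Trim AG, with adjusted p-values of 0.0526 to 0.0850. *Kdm3a* at -0.55 ± 0.087 was just under the fold threshold (adjusted p = 0.00113) and was called at -0.60 on library totals in place of TMM, while *Ddit4* at -0.23 ± 0.13 and *Mxi1* at -0.10 ± 0.11 were not past either threshold.

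For Plus A, Trim A and Trim AGU edgeR called no member in the interaction, beside 0.0193%, 0.605% and 0.966% of all genes. At an unadjusted edgeR p below 0.05 there were 2, 4 and 1 of the members, *Ak4* not among them. DESeq2 called *Higd1a* for Plus A and none for Trim A and Trim AGU. *Higd1a* for Plus A was at -0.99 ± 0.17 (edgeR adjusted p = 0.0596), and at -0.94 (adjusted p = 0.0635) without replicate 1 of Normoxia Plus A and of Normoxia miR-125b. For Trim AGU *Ndrg1* was at -1.33 ± 0.68 (adjusted p = 0.271), a wider error than for Trim AG, and *Ankrd37* was at 0.11 ± 0.34.

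Several other measures moved with Trim AG and Trim AGU. The summed level of the fibroblast markers *Col1a1*, *Col3a1*, *Pdgfra* and *Dcn*, nearly all of it collagen, was 7910 to 17469 CPM in Hypoxia Trim AG and 13250 to 26313 in Hypoxia Trim AGU, against 18050 to 35585 in Hypoxia Trim A, 39038 to 41085 in Hypoxia miR-125b and 25779 to 27556 in Hypoxia MC, and *Pdgfra* was below 1 CPM in all 33 libraries. Of the 10 proliferation genes, 9 were called higher than miR-125b with Trim AG in hypoxia (all genes, 7.85%) and 9 with Trim AGU (1.83%), and all 10 with each in normoxia (7.58% and 6.22%). Of the 15 genes of the integrated stress response, 10 and 9 were called lower than miR-125b in normoxia with Trim AG and Trim AGU (all genes, 6.36% and 5.16%). In the interaction 14 of the 15 were called positive with Trim AG, beside 4.29% of all genes. With Trim AGU 8 were called positive, beside 0.966% of all genes called in either direction. *Ddit3*, a transcription factor of that response, was at 1.96 ± 0.14 and its regulator *Atf4* at 0.86 ± 0.11 in the interaction for Trim AG, while *Mki67*, a marker of cycling cells, was at 1.30 ± 0.082 against miR-125b in normoxia. The part of these differences in the values of the 10 genes was not tested.

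Other genes of the pathway give a frame for these values. Of 9 genes of the HIF subunits and oxygen sensors 8 were in the tables and 5 passed the low-count filter, and from normoxia to hypoxia 1 of the 5 was called higher under each mimic, *Vhl*, at 0.63 ± 0.057 under miR-125b and 0.87 ± 0.071 under Trim AG. *Hif1a*, which encodes the main α subunit, was at -0.18 ± 0.052 under miR-125b and between -0.14 and 0.19 with the 5 mimics against MC in hypoxia, without a call. *Hif1an*, the asparaginyl hydroxylase that inhibits HIF, was at -0.43 ± 0.079 under miR-125b and -0.12 ± 0.076 for miR-125b against MC. Of 18 glycolytic targets, 8 of the 17 tested under miR-125b, 3 of 18 under Plus A, 6 of 17 under Trim A, 3 of 18 under Trim AG and 9 of 18 under Trim AGU were called higher in hypoxia, with medians of 0.44, 0.26, 0.40, 0.34 and 0.59. All genes called higher made up 9.34%, 10.00%, 12.0%, 15.0% and 13.6% in the same order, and all genes called lower 11.5%, 12.8%, 14.5%, 17.8% and 13.4%. Of the glycolytic targets, 1 was called lower under Plus A and 1 under Trim AG. *Pfkl*, a phosphofructokinase, was at 1.66 ± 0.05 under miR-125b and 0.26 ± 0.14 under Trim AG, and *Pgk1*, phosphoglycerate kinase, at 0.61 ± 0.04 and 0.54 ± 0.08. Of 6 angiogenic targets 3 were called higher under each mimic and 3, 3, 3, 2 and 2 lower, and *Vegfa*, the vascular growth factor, was at 1.19 ± 0.057 under miR-125b and 1.80 ± 0.11 under Trim AG. *Angptl4* was at 1.79 ± 0.19 under miR-125b. Of 16 further targets, 7 of the 15 tested were called higher under miR-125b and under Trim A, 8 under Plus A and under Trim AG, and 5 under Trim AGU, while 1 was called lower under each of miR-125b, Trim A and Plus A and 2 under each of Trim AG and Trim AGU. They were led under miR-125b by *Hmox1*, heme oxygenase 1, at 2.03 ± 0.042, with *Plin2*, a lipid droplet protein, the lowest at -0.87 ± 0.045.

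Across the 33 libraries, which share 11 groups and differ in depth, the 10 genes did not all vary together. As a description, Pearson's r of log2(CPM + 1) was 0.93 for *Kdm3a* with *Ankrd37* and with *Ddit4*, and 0.86 for *Ankrd37* with *Car9*, while *Ndrg1* with *Kdm3a* was 0.64. *Stc2* had an r of -0.10 with *Mxi1* to 0.23 with *Bhlhe40*, and *Bhlhe40* was negative with all genes other than *Stc2*. Outside the list, and among genes averaging 5 CPM or more, the pattern most like *Kdm3a* and *Ankrd37* was that of *Narf*, with r of 0.98 and 0.94, and that most like *Car9* was *Abtb1* at 0.96. *Ddit4* was closest to *Kdm4b*, a histone demethylase, at 0.97, *Higd1a* to *Tpi1*, a glycolytic enzyme, at 0.94, and *Ndrg1* to *Aldh3a2* at 0.90. *Bhlhe40* was closest to *Rbms1* at 0.94, *Mxi1* to *Dnase1l1* at 0.94 and *Stc2* to *Dnhd1* at 0.92.

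Normoxia with MC was seen here through the authors' group means alone, in the file that sets it beside Normoxia Plus A. The log2 ratio of these means, Plus A over MC, was -0.88 for *Ndrg1*, -0.64 for *Ankrd37* and -0.54 for *Car9*, and 0.64 for *Stc2* and 0.46 for *Ddit4*. It was 0.32 for *Bhlhe40*, -0.27 for *Higd1a*, 0.04 for *Mxi1* and 0.00 for *Kdm3a*, and the *Ak4* means were 0.676 for Plus A and 3.61 for MC. These means have no error or test here, and the Plus A mean rests on the libraries labelled Normoxia Plus A.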

How the data were processed

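RNA of H9C2 cells was measured by non-stranded poly-A sequencing. According to the submitters' processing notes the authors used HISAT2 and StringTie, with versions and genome build not given in the sources used here. The deposited tables hold raw read counts per gene from the authors and FPKM values from the authors, which are scaled to transcript length and depth. The group means that the authors deposited (unit signal, normalized by the authors) were used for Normoxia MC. The log2 fold changes and p-values that the authors deposited come from their own DESeq2 comparisons and were not used.

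The 11 tables with counts were joined on gene identifier over 33 libraries, a gene absent from a table being set to 0, and CPM was computed on library totals of 28361216 to 42672584 counts. Each comparison was fitted on its own libraries with edgeR 4.0.16 in R 4.3.3 (TMM scaling, filterByExpr, quasi-likelihood test, Benjamini-Hochberg adjustment over all genes tested). Calls needed a fold change of 1.5 or more together with an adjusted p below 0.05. There were 18 comparisons of pairs of groups and 4 interactions. The comparisons against MC share the Hypoxia MC libraries, and those against miR-125b share its libraries. The fits of hypoxia against normoxia under miR-125b and of the Trim AG interaction were also run on simulated data, with an outcome not reported here. The other fits were not simulated. Alternatives were DESeq2 1.42.0, library totals in place of TMM, no low-count filter, 1 fit over all libraries, a replicate block, leaving out libraries, the adjusted p alone and a fold change of at least 2.

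The 10 genes and the gene lists were chosen with earlier results of these data known. Beside the 10 genes, the text names the genes of each list with the largest and the smallest change under miR-125b, several genes fixed by symbol, and the gene most correlated with each of the 10 that had a mean of at least 1 CPM. 1 gene that this rule picks is not reported here. *Cav1* was chosen after its values were seen. Promoter and miRNA sequences came from RefSeq (GRCr8), and their coordinates are not comparable with those of the authors' tables. Intervals on *Ak4* counts are Clopper-Pearson at 95% and cover counting error only.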

Additional observations from a re-analysis of the deposited data

Results flagged for a closer look

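The response to hypoxia under Trim AG differed from that under miR-125b, by a test of the interaction itself with edgeR over 3 libraries per group, in 5 of the 9 genes other than *Ak4*. *Ndrg1* was at -2.43, *Ankrd37* at -1.44, *Car9* at -1.01 and *Higd1a* at -0.78, and *Stc2* was at 0.80. The *Car9* call was lost on leaving out any of 5 libraries, with edgeR adjusted p-values of 0.0526 to 0.0850. A negative value is a lower log2 fold change of hypoxia against normoxia with Trim AG than with miR-125b. Of all genes tested, 6.97% were called negative and 4.29% positive at the same thresholds. The collagen-rich marker sum and the proliferation genes also differed between Trim AG and miR-125b, and the Hypoxia Trim AG libraries were the deepest. The part of these differences in the values was not tested.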

How the results depend on the processing

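Numbers of the 10 genes called, *Ak4* included, are given under each alternative that moved them by over 1.5 times. With the adjusted p alone, the number in hypoxia against normoxia was 8 for Plus A, against MC it was 10 for Plus A, 7 for miR-125b and 7 for Trim A, against miR-125b in hypoxia it was 3 for Plus A and 7 for Trim AG, and against miR-125b in normoxia it was 6 for Trim AG, 3 for Trim AGU and 1 for Trim A. With a fold change of at least 2, it was 2 for Trim AG in hypoxia against normoxia, 3 for Trim AG, 1 for miR-125b and 1 for Trim AGU against MC, 0 for Plus A and 0 for Trim A against miR-125b in hypoxia, 1 for Trim AG and 0 for Trim AGU against miR-125b in normoxia, and 3 for the Trim AG interaction. Trim AG against miR-125b in normoxia had 1 call with DESeq2, 1 with no low-count filter and 1 in the fit over all libraries, and the Plus A interaction had 1 with DESeq2 and 1 with no filter. Trim AGU against miR-125b in hypoxia had 2 in the fit over all libraries. No called value changed its sign under the alternatives run. Of 214 values of single genes, 30 that were not called changed sign under at least 1 alternative. Their size was at most 0.19 on the log2 scale, other than *Ak4* in the Plus A interaction, at -0.39.

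Leaving out 1 library at a time, with *Ak4* again included, gave 4 to 6 calls for Trim AGU, 5 to 6 for Trim AG and 5 to 7 for Plus A in hypoxia against normoxia, and 3 to 4, 5 to 7, 4 to 5 and 7 to 8 for miR-125b, Plus A, Trim A and Trim AG against MC. *Ak4* can pass the low-count filter through the group where it is high, so its calls within the numbers of this section are no support for a change. Against miR-125b it gave 3 to 4 for Trim AG, 0 to 1 for Trim AGU and 0 to 1 for Trim A in hypoxia, and 1 to 2 for Trim AG in normoxia. The interactions gave 4 to 5 for Trim AG, 0 to 1 for Trim A and 0 to 1 for Plus A, and the number was the same throughout in the other comparisons.

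Replicate numbers did not pair the libraries, with correlations of -0.161 to 0.0756 between same-numbered libraries and 0 of 18 comparisons in which every library was closest to its own number. With the replicate block, 0 genes were called for Trim A and 0 for Trim AGU against miR-125b in hypoxia. Library totals in place of TMM moved the share of higher among called genes from 44.8% to 55.4% for miR-125b and from 43.9% to 56.5% for Plus A in hypoxia against normoxia, from 48.0% to 33.8% for Trim AGU against MC and from 63.3% to 52.9% for the Trim AGU interaction. The cause of these changes was not tested.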
